A study of Mus musculus with 30 samples.

Results

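Complex I, or NADH dehydrogenase, is the first enzyme of the mitochondrial respiratory chain, and most of its subunits are encoded in the nucleus. The genes described here are the protein-coding genes of the mouse whose symbols start with Ndufa, Ndufb, Ndufc, Ndufs or Ndufv and that averaged at least 10 counts per heart in at least 1 of the tables of the series. There were 46 such genes among 12898 genes that reached this level in either table. Of these, 36 were subunits (7 core and 29 accessory) and 8 were the assembly factors *Ndufaf1* to *Ndufaf8*, while *Ndufa4* and *Ndufa4l2* were kept apart because *Ndufa4* has been assigned to complex IV. All 46 protein-coding genes with these names passed the count minimum in both tables, so that none was lost to the filter. The remaining 5 genes with such names are annotated as pseudogenes or as a long non-coding RNA and were not members.

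RNA from the left ventricle of male wild type C57BL6J mice was sequenced in a pair of studies that were run separately and have no hearts in common. The peptide study compared 7 mice injected daily i.p. with Aβ42, the 42-residue amyloid beta peptide in its human recombinant form, with 7 mice given its scrambled control, ScrAβ42, for 4 weeks. The labels put the age of these mice at the start at 12 weeks, and the methods give a range that reaches slightly younger. The sample labels give a dose of 1 mg per day, whereas the methods of the study give the same figure in µg. The antibody study compared 8 mice given 3D6, an antibody that neutralises amyloid beta, with 8 mice given an isotype control antibody, each injected i.p. every week at a dose of 0.75 mg/kg. They entered the experiment at 12 weeks of age, and the treatment is described as lasting 4 months in one place and somewhat less in the methods. The methods of the study place the antibody mice on a high-fat diet, and its results name that experiment as the source of the sequenced hearts. The series description says instead that they had received Aβ42, and the sample labels give no diet. Each sample is the heart of 1 mouse, identified by its mouse number, and labels do not say whether mice of a group shared a cage or litter.

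The membrane arm of complex I carries the subunits of the mitochondrial genome and the hydrophilic arm carries the core nuclear subunits, which bind the flavin and the iron-sulfur clusters that pass electrons from NADH to ubiquinone. Accessory subunits surround this core and are needed for its stability, and assembly factors bind the growing modules and leave before the enzyme is complete. The heart is among the tissues richest in this enzyme, and loss of an accessory subunit such as *Ndufs4* causes Leigh syndrome, a mitochondrial disease. The question put to these data is how the transcripts of subunits and assembly factors stood in hearts exposed to Aβ42 and in hearts treated with 3D6.

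Subunits and assembly factors differed widely in level. Levels are given as normalised CPM, that is counts scaled to a common library size by the TMM method, and for comparisons between genes as CPM per kilobase, with transcript lengths weighted by the counts of the antibody table. In the peptide study the median subunit stood at 283.3 CPM per kilobase, from 8.81 for *Ndufb4* to 748 for *Ndufb9*. The *Ndufb4* level is uncertain, since it differed widely between the tables, as described below. The 8 assembly factors lay between 13.1 for *Ndufaf6* and 25.3 for *Ndufaf1*, with a median of 17.3. The antibody hearts gave the same order, with a median of 231 CPM per kilobase for the subunits and 12.3 for the assembly factors. There the lowest subunit was *Ndufs4* at 77.9 and the highest assembly factor was *Ndufaf8* at 19.7. *Ndufa4* stood above every subunit and assembly factor in both studies, at 947 and 614 CPM per kilobase.

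Promoters of the members were examined for short sequences because the subunits moved together from heart to heart, as described below. The promoter windows are from RefSeq (GRCm38.p6), run from 250 bases before to 50 bases after a start site, and were found for 40 of the 46 members, in 42 windows. Both strands were searched for exact letters. The letters AAGATGGCG, known from binding sites of YY1, were present in 14.3% of the member windows and in 1.40% of all 32851 windows. The palindrome of NRF1, whose letters are the capitals of the second set of lines, was present in 7.14% of the member windows and in 0.971% of all windows. The shares were closer for other letters: CCGGAAG (ETS family) was in 14.3% against 8.86%, AAGGTCA (oestrogen-related receptors) in 7.14% against 4.72%, GGGCGG (GC box) in 52.4% against 35.7%, and CCAAT in 33.3% against 37.4%. TATAAA was in 11.9% of member windows and 13.6% of all. The 30 bases around each YY1 match are shown, read along the strand of the gene with the match in capitals, because in 5 of the 6 the ATG inside the match is the annotated start codon of the gene, so that the match lies in the transcribed part and spans the first codon.
Ndufa9, chr6:126849096-126849125, minus strand: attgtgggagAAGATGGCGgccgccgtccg
Ndufc1, chr3:51408914-51408943, minus strand: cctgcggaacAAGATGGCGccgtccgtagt
Ndufs4, chr13:114388045-114388074, minus strand: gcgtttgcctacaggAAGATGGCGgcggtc
Ndufs6, chr13:73328433-73328462, minus strand: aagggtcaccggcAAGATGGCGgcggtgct
Ndufs7, chr10:80249463-80249492, plus strand: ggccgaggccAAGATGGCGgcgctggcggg
Ndufaf8, chr11:120098934-120098963, plus strand: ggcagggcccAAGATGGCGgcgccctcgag

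The matches began between 11 and 36 bases downstream of the start site, counted as +1, and the *Ndufaf8* match is the one whose ATG is not an annotated start codon. The 3 NRF1 matches are shown in the same way, since they fell in 1 subunit and 2 assembly factors.
Ndufa11, chr17:56717692-56717721, plus strand: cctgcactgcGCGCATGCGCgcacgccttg
Ndufaf4, chr4:24897960-24897989, plus strand: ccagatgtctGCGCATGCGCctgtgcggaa
Ndufaf5, chr2:140170652-140170681, plus strand: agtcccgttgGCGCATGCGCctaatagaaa

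These began at -60, -113 and +17 relative to the start site. A match of letters is a description of the window and not evidence that the factor binds there.

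The peptide hearts had from 4478991 to 6015767 counts in total and the antibody hearts from 6397189 to 8310480. Summed ventricular cardiomyocyte markers ran from 38670 to 83083 CPM in the peptide hearts and from 43897 to 56819 CPM in the antibody hearts. In the peptide study they were lowest in Abeta42_3457 and highest in ScrAbeta42_3449, the hearts with the lowest and highest subunit sums. The summed level of 5 atrial markers exceeded 100 CPM in 5 of 7 Aβ42 hearts, 1 of 7 ScrAβ42 hearts, 4 of 8 3D6 hearts and 2 of 8 control antibody hearts. The mitochondrial genome supplied from 12.9% to 22.2% of counts in the peptide hearts and from 25.9% to 37.8% in the antibody hearts. A length tilt was also computed for each heart, as the median deviation of log2 CPM of protein-coding genes under 1000 nt minus that of genes of 2000 nt and over, with the members left out. It ran from -0.21 to 0.21 in the peptide hearts and from -0.55 to 0.66 in the antibody hearts. These properties are set beside the results they touch.

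Summed subunit transcripts covered overlapping but unequal ranges in treated and control hearts. Aβ42 hearts held between 6416 and 11553 CPM with a median of 10290, and ScrAβ42 hearts between 7799 and 12233 CPM with a median of 10096. The 3D6 hearts held between 5687 and 9519 CPM with a median of 8163, and the control antibody hearts between 5901 and 11057 CPM with a median of 8306. The groups overlapped in both studies, and the highest heart exceeded the lowest by 1.91-fold in the peptide study and 1.94-fold in the antibody study. Summed assembly factors spanned less, 1.66-fold and 1.37-fold. Their group means were 189.6 ± 23.6 CPM with Aβ42 and 191.1 ± 25.9 CPM with ScrAβ42 (SD, n = 7 each), and 135.8 ± 15.6 CPM with 3D6 and 134.0 ± 6.84 CPM with control antibody (SD, n = 8 each). In whole tissue, fewer cardiomyocytes and less RNA per cardiomyocyte cannot be told apart.

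**Figure D1:**
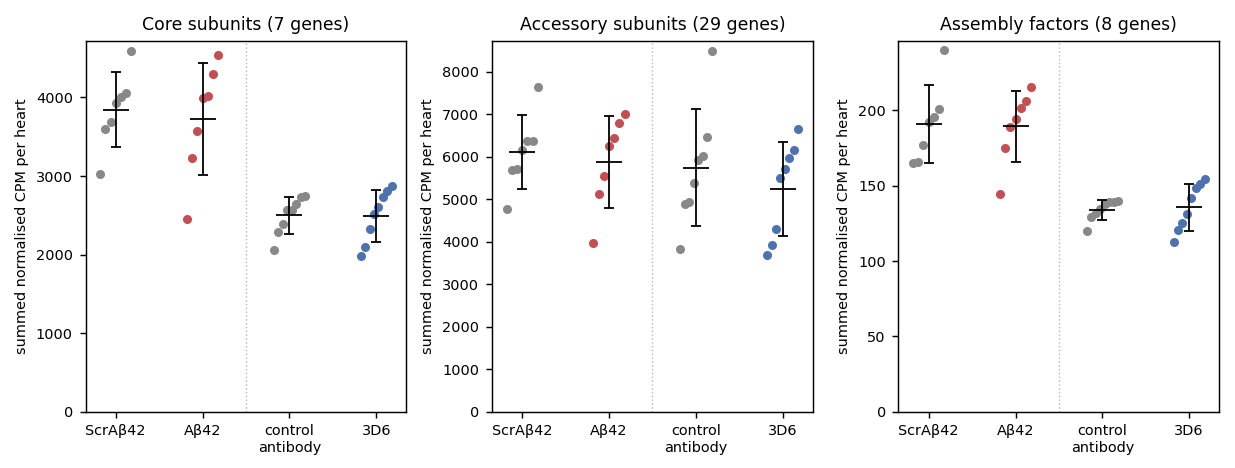
Summed normalised CPM of the 7 core subunits, 29 accessory subunits and 8 assembly factors, with 1 point per heart, the group mean as a horizontal bar and the SD as an error bar. Points of treated and control hearts overlap in every panel, and 1 control antibody heart lies above all others of its study for the accessory subunits (8493 CPM).

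Aβ42 hearts held slightly less of most subunit transcripts than ScrAβ42 hearts, but no member passed the test. With edgeR's quasi-likelihood test, 0 of the 46 members had an adjusted p under 0.05 and 0 had an unadjusted p under 0.05. Of all 11985 genes tested, 0% and 6.51% did, the latter made up of 3.59% higher and 2.92% lower with Aβ42. DESeq2 and limma-voom likewise gave 0 members at either threshold. Over all genes DESeq2 gave 12 with an adjusted p under 0.05 and limma-voom 0, and none of the 12 was a member. For these tools the share of all genes at the unadjusted threshold is not given here. The log2 fold change was below 0 for 31 of 36 subunits and above 0 for 5, beside 49.5% and 50.5% of all genes. The median over the subunits was -0.059 and that over all genes was 0.0015. No member separated the groups, beside 0.0918% of all genes that did. The shift was far smaller than the spread among hearts, since the median deviation of the subunits varied with an SD of 0.25 log2 units within the groups. By medians rather than fitted fold changes, 20 of 36 subunits were lower in the Aβ42 hearts.

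Core subunits lay below 0 in 6 of 7 cases, with a median of -0.072 and a range from -0.11 to 0.0081. *Ndufv1*, which binds NADH and the flavin, averaged 828 ± 158 CPM with Aβ42 and 876 ± 103 CPM with ScrAβ42 (SD, n = 7 each). *Ndufv2*, which carries an iron-sulfur cluster next to it, was the 1 core subunit above 0, at 409.6 ± 81.0 and 407.2 ± 67.6 CPM. Values of the 29 accessory subunits ran from -0.23 to 0.052 with a median of -0.056. The 4 above 0 were *Ndufa10*, *Ndufb5*, *Ndufc1* and *Ndufc2*, the last of them at 0.0018.

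The 5 members with the smallest unadjusted p in this comparison were all accessory subunits that were lower with Aβ42. *Ndufa1*, a small membrane-arm subunit encoded on the X chromosome, ran from 104.0 to 152.7 CPM with a median of 133.9 in the Aβ42 hearts and from 118.4 to 192.9 CPM with a median of 149.6 in the ScrAβ42 hearts. In all, 6 of 7 Aβ42 hearts lay below the ScrAβ42 median, yet the groups overlapped. Its log2 fold change was -0.19 ± 0.10 (SE; edgeR adjusted p = 0.779), and -0.12 without the heart ScrAbeta42_3449. *Ndufb3*, also of the membrane arm, ran from 64.7 to 107.3 CPM with a median of 99.7 against 86.4 to 145.6 CPM with a median of 101.1. The difference of -0.17 ± 0.12 was -0.076 without ScrAbeta42_3449, the highest of all 14, and -0.099 without Abeta42_3457 (edgeR adjusted p = 0.848 with all hearts).

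*Ndufs6*, a zinc-binding subunit that joins late in assembly, had the largest difference of any member, -0.23 ± 0.19 (edgeR adjusted p = 0.867). Its values were 64.3 to 175.7 CPM with a median of 153.5 under Aβ42 and 112.9 to 215.2 CPM with a median of 164.2 under ScrAβ42. The lowest value belonged to the heart Abeta42_3457, and without that heart the difference was -0.11, and it was -0.15 without ScrAbeta42_3449. *Ndufa12*, the accessory subunit that takes the place of the assembly factor *Ndufaf2*, was at -0.11 ± 0.095 (edgeR adjusted p = 0.875), and at -0.056 without Abeta42_3457 and -0.059 without ScrAbeta42_3449. Aβ42 hearts lay between 56.2 and 81.0 CPM and ScrAβ42 hearts between 65.3 and 93.5 CPM, and 4 of 7 Aβ42 hearts lay above the ScrAβ42 median of 74.5 CPM. *Ndufb6* was at -0.14 ± 0.13 (edgeR adjusted p = 0.879), with 62.4 to 111.3 CPM and a median of 88.5 against 71.0 to 116.4 CPM and a median of 97.0. It was at -0.079 without Abeta42_3457, -0.086 without ScrAbeta42_3449, -0.094 without Abeta42_3455 and -0.22 without Abeta42_3456. In all 5 genes the treated and control ranges overlapped.

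The 8 assembly factors *Ndufaf1* to *Ndufaf8* showed no common direction with Aβ42, whereas most other complex I assembly factors, given further below, lay below 0. Of the 8, 4 lay above 0, the median was 0.012 and the range was -0.12 to 0.10, with standard errors from 0.088 to 0.16. *Ndufaf1*, which works with *Ecsit* and *Acad9* on the membrane arm, averaged 35.5 ± 7.73 CPM with Aβ42 and 33.3 ± 6.23 CPM with ScrAβ42. *Ndufaf3*, which acts on the early ubiquinone-binding module together with *Ndufaf4*, averaged 19.7 ± 4.32 and 21.4 ± 2.04 CPM, and *Ndufaf4* 51.3 ± 5.70 and 54.4 ± 12.7 CPM. The paralogue *Ndufa4l2*, a gene induced in hypoxia, was low in all hearts, at 12.8 ± 2.89 and 13.4 ± 1.85 CPM (SD, n = 7 each).

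The subunit shift in the peptide study moved with individual hearts and with atrial RNA. The heart Abeta42_3457 held the lowest level of 34 of the 36 subunits, the lowest mitochondrial share and the highest summed atrial markers (8417 CPM). The heart ScrAbeta42_3449 held the highest level of 27 subunits. Without the first of these the median subunit difference was 0.013, with 21 of 36 above 0, and without the second it was 0.0011. When the atrial score entered as a covariate it was 0.11, with 33 of 36 above 0, and the assembly factor median was 0.105. With the length tilt as a covariate, a choice made after seeing the data, it was -0.056. All 5 atrial markers were higher in the Aβ42 group, with a median log2 fold change of 2.31. Of them *Bmp10*, which was at 0 in at least 1 heart, had an unadjusted p under 0.05 by edgeR, at 6.81 ± 1.89 (edgeR adjusted p = 0.639). The part of the atrial markers in the subunit difference was not tested beyond the fit with the atrial score. Other markers also moved with the groups or with these hearts. All 4 adipocyte markers were higher with Aβ42, with a median of 2.49, and 2 of them, *Plin1* and *Ucp1*, had an unadjusted p under 0.05 by edgeR. Their sum ran from 0.198 to 519 CPM with Aβ42, highest in Abeta42_3457, and from 0 to 48.1 CPM with ScrAβ42, and each of the 4 was at 0 in at least 1 heart. All 4 red cell markers were lower with Aβ42, with a median of -1.37, and their sum ran from 494 to 4498 CPM against 710 to 14323 CPM. Of the endothelial markers 3 of 4 and of the fibroblast markers 2 of 3 were below 0, with medians of -0.11 and -0.0069. Below 0 were also 5 of 7 ventricular cardiomyocyte markers (median -0.17), both leukocyte markers (median -0.20) and all 3 fast skeletal muscle markers (median -0.72), whose sum ran from 2.38 to 50.4 CPM with Aβ42 and from 26.0 to 46.3 CPM with ScrAβ42. The mouse numbers of the groups do not overlap in this study, so that anything tied to the number cannot be told apart from the treatment. The part of these cell types in the subunit difference was not tested.

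**Figure D2:**
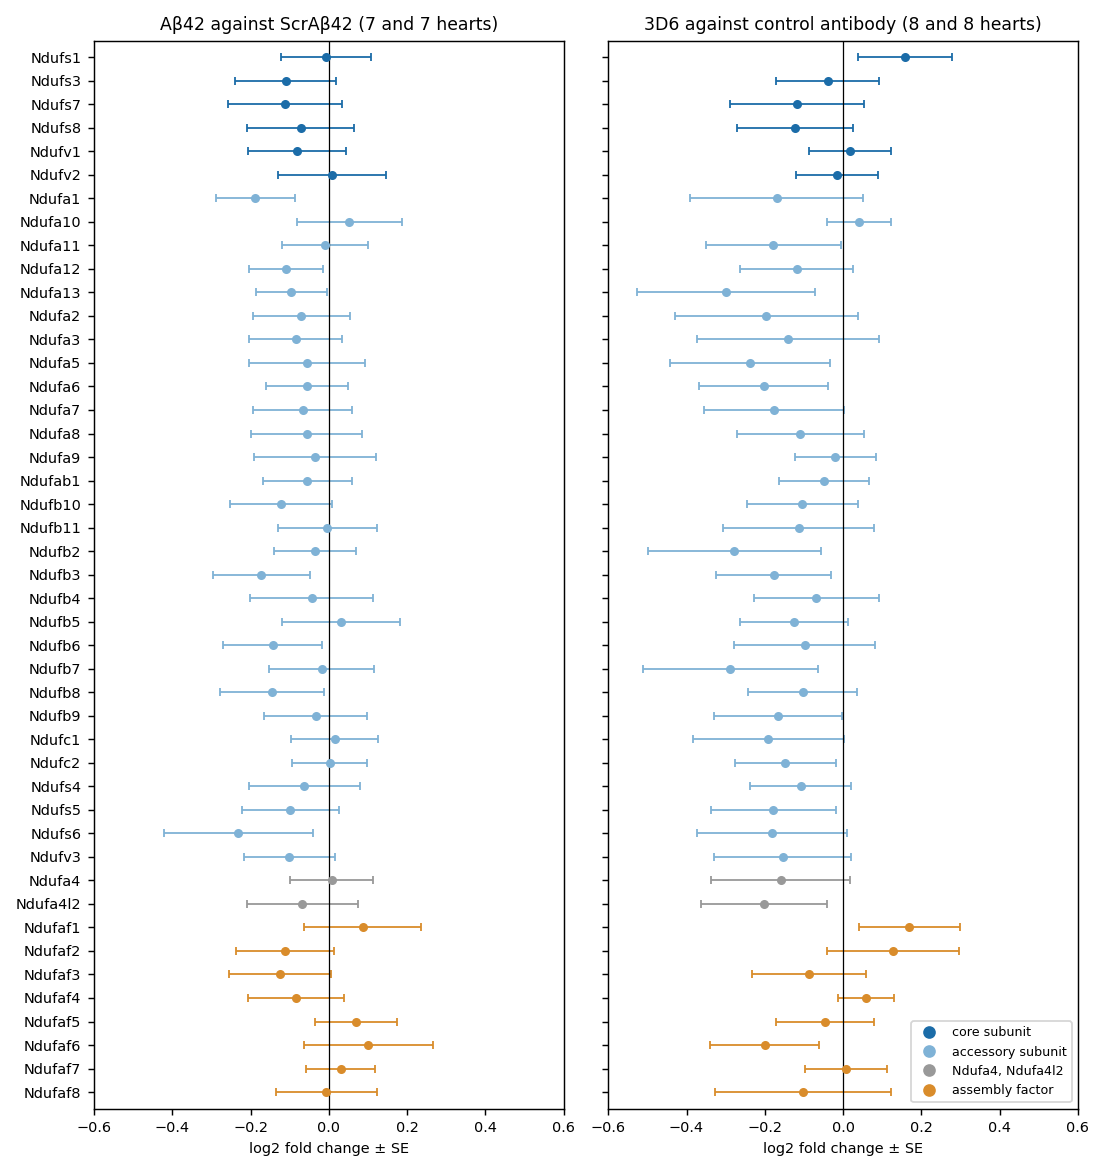
Log2 fold change of 45 of the 46 members, treated minus control, with its standard error as a horizontal bar, in the peptide study (left) and the antibody study (right). Colours mark core subunits, accessory subunits, assembly factors and the 2 genes kept apart. Most subunits lie a little left of 0 in both panels, while the assembly factors scatter to either side.

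Hearts treated with 3D6 also held slightly less of most subunit transcripts than control antibody hearts, as Aβ42 hearts did against ScrAβ42 hearts. By edgeR, 0 of the 46 members had an adjusted p under 0.05 and 0 had an unadjusted p under 0.05, beside 0% and 3.64% of all 12274 genes tested (1.32% higher and 2.32% lower with 3D6). DESeq2 and limma-voom again gave 0 members at either threshold. Their shares over all genes are not given here, so these counts stand without a background. Log2 fold changes were below 0 for 33 of 36 subunits and above 0 for 3, beside 52.6% and 47.4% of all genes. The subunit median was -0.12 and that of all genes was -0.0098. Neither a member nor any other gene (0%) separated the groups. Within the groups, the median deviation of the subunits varied with an SD of 0.33 log2 units. By group medians, 19 of 36 subunits were lower with 3D6.

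By fitted fold change, accessory subunits lay lower than core subunits in this comparison, a difference that was not tested. All but 1 of the 29 accessory subunits lay below 0, the exception being *Ndufa10* at 0.040, with a median of -0.15 and a lowest value of -0.30. The 7 core subunits had a median of -0.023, with *Ndufs1* and *Ndufv1* above 0. Control heart 22 held 8493 CPM of accessory subunits, where the next control heart, 18, held 6468 CPM, but 2564 CPM of core subunits. Group medians of the accessory sum were 5601 CPM with 3D6 and 5658 CPM with control antibody. Those of the core sum were 2562 and 2564 CPM. The classes also differ in transcript length, with a median of 686 nt for the accessory and 1343 nt for the core subunits. Among all protein-coding genes under 1000 nt, 565 of 650 lay below 0 in the same fit, with a median of -0.13, whereas genes of 2000 nt and over had a median of 0.013. The 25 subunits under 1000 nt were all below 0 with a median of -0.15, and the 11 longer ones had a median of -0.023. Short genes showed no such shift in the peptide study, where their median was -0.0078.

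In all, 3 subunits and 2 assembly factors had the smallest unadjusted p with 3D6. *Ndufaf6*, a putative squalene and phytoene synthase-like protein needed for assembly, was at -0.20 ± 0.14 (SE; edgeR adjusted p = 0.946). It ran from 6.46 to 10.1 CPM with a median of 7.60 under 3D6 and from 5.12 to 11.3 CPM with a median of 9.18 under control antibody, and 7 of 8 3D6 hearts lay below the control median. *Ndufaf1* was at 0.17 ± 0.13 (edgeR adjusted p = 0.946), with 20.1 to 30.2 CPM against 13.5 to 27.1 CPM, and 3 of 8 3D6 hearts lay above all controls. Without control heart 22 it was at 0.095. It had the highest log2 fold change of any member in this study.

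*Ndufs1*, the largest core subunit and the carrier of several iron-sulfur clusters, was at 0.16 ± 0.12 (edgeR adjusted p = 0.946). Its 3D6 values ran from 400.1 to 487.5 CPM with a median of 412.8, and its control values from 210.5 to 448.6 CPM with a median of 403.1. Control heart 22 was the low value, and without it the difference was 0.075. *Ndufa13*, also known as GRIM-19, was at -0.30 ± 0.23 (edgeR adjusted p = 0.946), the largest difference of any member in this study. Its 3D6 values were 164.1 to 384.7 CPM with a median of 283.4, and its control values 172.1 to 655.5 CPM with a median of 277.3, so that the 3D6 median was the higher. The same control heart 22 held the value of 655.5 CPM, and without it the difference was -0.067. *Ndufb7* was at -0.29 ± 0.22 (edgeR adjusted p = 0.946) with 120.6 to 242.9 CPM and a median of 206.8 against 119.0 to 454.6 CPM and a median of 205.1, and again heart 22 was the highest and the difference without it was -0.063.

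Of the 10 members given full statistics, *Ndufaf6* and *Ndufs1* had opposite signs in the 2 studies and the other 8 had the same sign. In the 3D6 comparison *Ndufa1* was at -0.17 ± 0.22, *Ndufb3* at -0.18 ± 0.15, *Ndufs6* at -0.18 ± 0.19, *Ndufa12* at -0.12 ± 0.14 and *Ndufb6* at -0.098 ± 0.18. Without control heart 22 these 5 were at 0.0050, -0.084, -0.0067, -0.026 and -0.017. Omission of other hearts also moved some of them by over 1.5 times. For *Ndufa1* the difference was -0.086 without 3D6 heart 7 or 12, -0.29 without 3D6 heart 24 and -0.26 without control heart 8. *Ndufs6* was at -0.11 without 3D6 heart 7. *Ndufa12* lay between -0.075 and -0.068 without 3D6 heart 4, 7 or 12 and at -0.18 without control heart 8. *Ndufb6* lay between -0.049 and -0.024 without 3D6 heart 4, 7 or 12, and was at -0.061 without control heart 23, -0.18 without control heart 8 and -0.19 without 3D6 heart 24. In the Aβ42 comparison *Ndufaf6* was at 0.10 ± 0.16, *Ndufa13* at -0.096 ± 0.090, *Ndufs1* at -0.0072 ± 0.12, *Ndufaf1* at 0.086 ± 0.15 and *Ndufb7* at -0.018 ± 0.13. Each of these 5 moved by over 1.5 times with single hearts. *Ndufaf6* was at 0.020 without Abeta42_3460, 0.040 without ScrAbeta42_3442, 0.050 without ScrAbeta42_3448, 0.16 without ScrAbeta42_3449 and 0.21 without Abeta42_3457. *Ndufa13* was at -0.060 without Abeta42_3457 and -0.038 without ScrAbeta42_3449. Over all omitted hearts *Ndufaf1* ran from 0.015 (without Abeta42_3452) to 0.17, *Ndufb7* from -0.088 (without Abeta42_3460) to 0.061 and *Ndufs1* from -0.056 (without ScrAbeta42_3448) to 0.066, each highest without Abeta42_3457. With all hearts, none of the 10 reached an unadjusted p under 0.05 by edgeR in either study. Of the 36 subunits, 29 were below 0 in both comparisons, 1 was above 0 in both, 4 were above 0 with Aβ42 and below with 3D6, and 2 the reverse. Of the 11361 genes tested in both, 24.3% were below 0 in both and 22.1% above 0 in both. The peptide side of this count rests on few hearts, since 21 of 36 subunits lay above 0 without Abeta42_3457, and 33 of 36 with the atrial score as a covariate. On the antibody side 33 of 36 lay above 0 with the mitochondrial share as a covariate. The 8 assembly factors were spread evenly over the 4 combinations, 2 in each, but single hearts weighed on some of these signs. *Ndufaf4* stood at 81.3 CPM in ScrAbeta42_3449, against a ScrAβ42 median of 52.6 CPM. *Ndufaf8* was below 0 with 3D6, yet its median was 15.0 CPM with 3D6 and 12.5 CPM with control antibody, where 1 heart reached 31.5 CPM. The comparisons share no hearts, but their tables were made and normalised separately.

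The assembly factor values with 3D6 again had no common sign. Of the 8, 4 lay above 0, with a median of -0.019 and a range from -0.20 to 0.17. *Ndufaf2* averaged 10.4 ± 2.95 CPM with 3D6 and 9.49 ± 1.67 CPM with control antibody. *Ndufaf5*, which hydroxylates *Ndufs7*, averaged 10.3 ± 1.76 and 10.7 ± 1.76 CPM, its partner *Ndufaf8* 13.9 ± 3.07 and 14.9 ± 7.30 CPM, and *Ndufaf7*, a methyltransferase, 15.9 ± 2.15 and 15.8 ± 2.25 CPM (SD, n = 8 each).

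The antibody hearts with the lowest subunit sums were also those with the lowest length tilt. The 4 hearts with a tilt of -0.42 or less were 3D6 hearts 4, 7 and 12 and control heart 8, and they held the 4 lowest subunit sums, from 5687 to 6618 CPM. Control heart 22 had the highest tilt, 0.66, and the highest sum, 11057 CPM, with the highest level of 27 of the 36 subunits and the lowest mitochondrial share, 25.9%. With the tilt as a covariate, added after seeing the data, the subunit median was 0.0039 with 21 of 36 above 0, and the accessory median was 0.00036. With the mitochondrial share as a covariate it was 0.048, with 33 of 36 above 0. Leaving out heart 22 gave a median of -0.024, and leaving out control heart 8 gave -0.20. What the tilt stems from was not tested. Subunit sums also followed the mouse number, whose meaning is not given by the labels. The 7 hearts numbered 3 to 15 held from 5687 to 7957 CPM and tilts from -0.55 to -0.038, and the 9 hearts numbered 16 to 24 held from 8013 to 11057 CPM and tilts from 0.098 to 0.66. Of the lower numbers 3 were 3D6 and 4 control hearts, and of the higher numbers 5 and 4. With the number as a covariate, a choice made after this order was seen, the subunit median was -0.15, and with consecutive numbers as a block, each holding 1 heart of either group, it was -0.12. In both fits 3 of 36 subunits lay above 0 and 0 members had an unadjusted p under 0.05 by edgeR, beside 7.94% and 7.70% of all genes. Markers of other cell types lay below 0 with 3D6 as well. All 4 endothelial markers did, with a median of -0.17, and *Pecam1* had an unadjusted p under 0.05 by edgeR, at -0.23 ± 0.084. Their sum ran from 525.9 to 674.9 CPM with 3D6 and from 578.5 to 777 CPM with control antibody, highest in heart 22. All 3 fibroblast markers (median -0.044), both leukocyte markers (median -0.12), 5 of 7 ventricular cardiomyocyte markers (median -0.071) and all 4 red cell markers (median -0.11) were also below 0. The 4 atrial markers tested had a median of -0.97, but control heart 15 alone held 2776 CPM of summed atrial markers. By group medians this sum was higher with 3D6, at 98.5 CPM against 2.88 CPM with control antibody. In 3D6 hearts over 100 CPM of atrial markers the median subunit sum was 7012 CPM, and 8639 CPM in those under. In control antibody hearts these medians were 7253 and 8661 CPM. The adipocyte and fast skeletal muscle markers were too low to test. The part of these cell types was not tested.

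**Figure D3:**
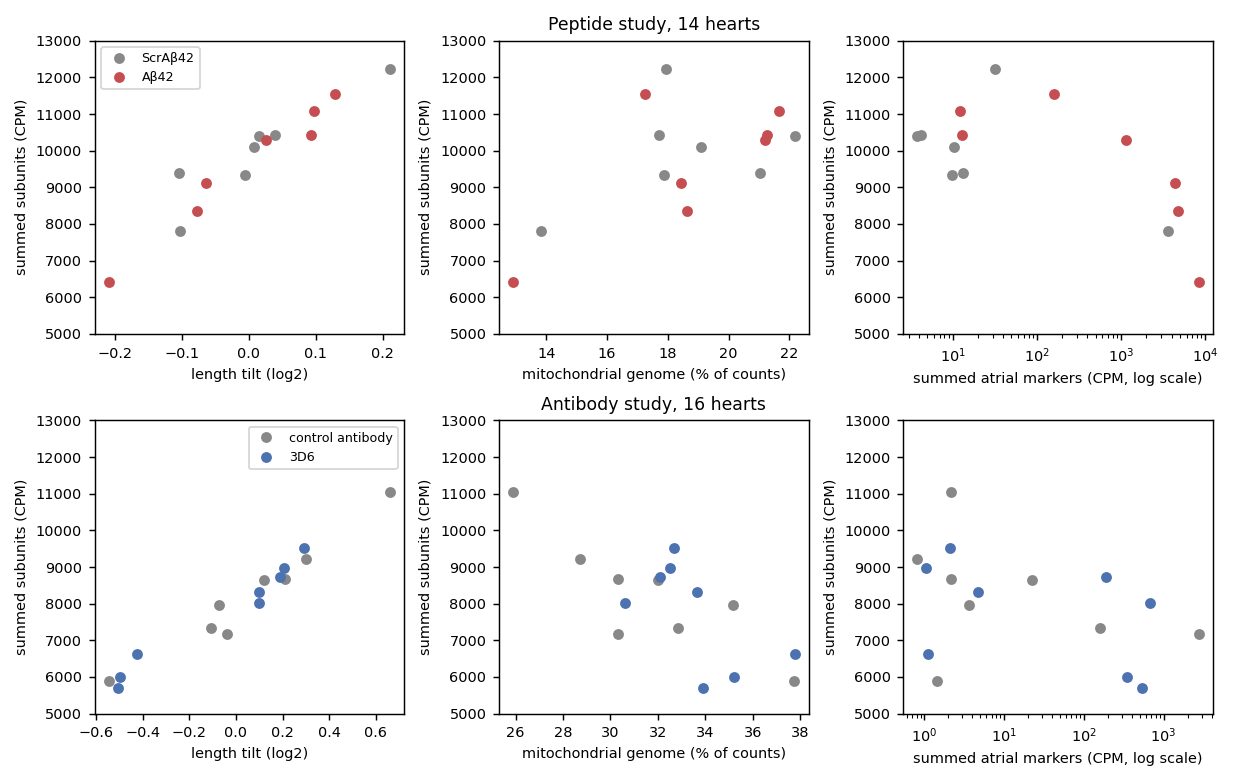
Summed CPM of the 36 subunits in each heart against the length tilt, the share of counts on the mitochondrial genome and the summed atrial markers (log axis), for the peptide study (top) and the antibody study (bottom). In the antibody study the heart of highest tilt (0.66) has the highest sum (11057 CPM), and in the peptide study the 4 hearts with the lowest sums have from 3665 to 8417 CPM of atrial markers.

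**Figure D4:**
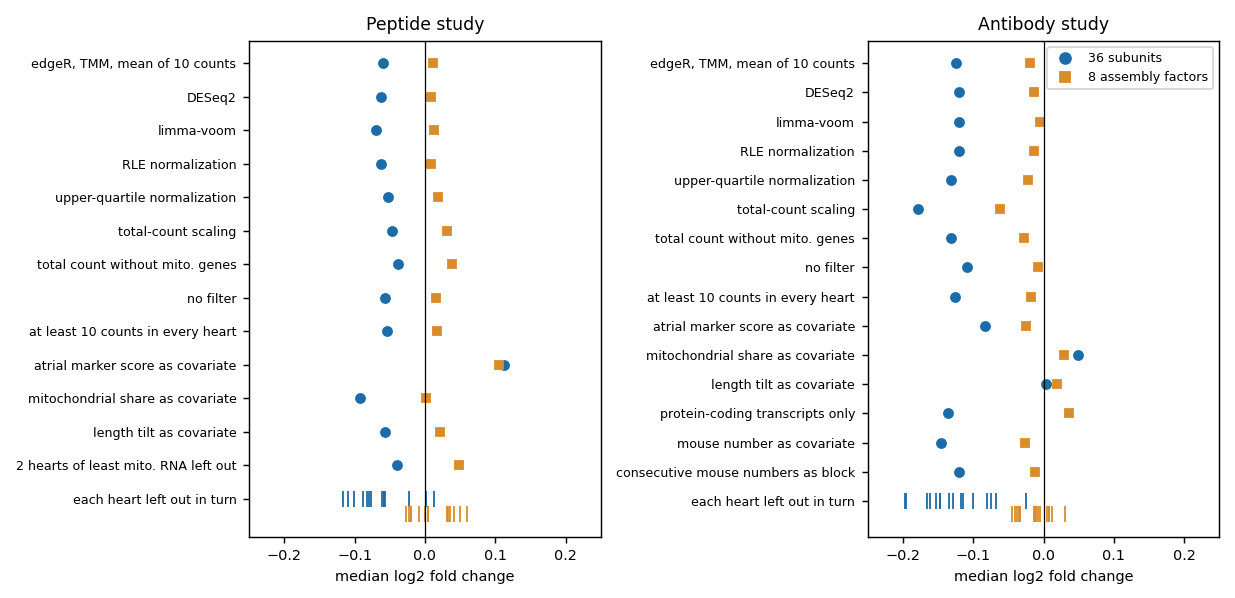
Median log2 fold change of the 36 subunits (circles) and 8 assembly factors (squares) under each way of processing, with 1 tick for each heart left out in the lowest rows. Subunit medians stay below 0 under every tool and normalisation shown and lie above 0 with the atrial score as a covariate in the peptide study (0.11) and with the mitochondrial share (0.048) or the length tilt (0.0039) as a covariate in the antibody study.

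Transcript estimates of the antibody study set control heart 22 apart in another way. The main protein-coding transcript of *Ndufa10*, Ndufa10-201 of 2020 nt, had between 2701 and 3547 counts in the 3D6 hearts and between 2440 and 3158 in 7 control hearts, but 829 in heart 22. The same heart held 1832 counts of Ndufa10-207, a 1514-nt transcript annotated for nonsense-mediated decay. The next highest heart, control heart 18, held 866. This transcript also followed the mouse number. The 6 hearts that held 0 were all numbered from 3 to 15, where control heart 11 held 210. Hearts numbered 16 to 24 held from 72 to 1832. For *Ndufs1*, heart 22 held 885 counts of Ndufs1-201 and the other control hearts 1908 to 2325. The gene level of *Ndufa10* differed less, at 382 CPM in heart 22 and between 433 and 514 CPM in the other control hearts. In 8 of the 46 members, transcripts not annotated as protein-coding took at least 10% of the counts, led by *Ndufaf4* with 65.2% and *Ndufa5* with 54.3%.

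**Figure D5:**
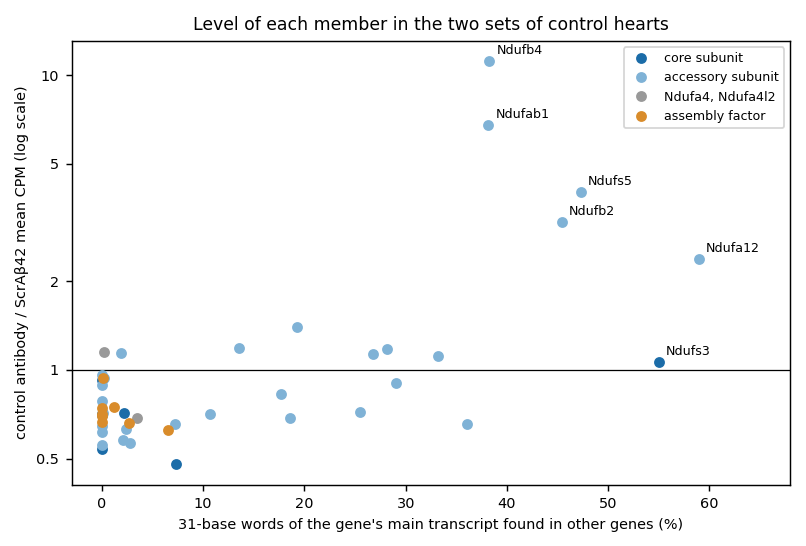
Ratio of the mean CPM in control antibody hearts to that in ScrAβ42 hearts (log axis) for each member, against the percentage of 31-base words of its main transcript that also occur in transcripts of other genes. The 5 genes with ratios over 2 all share more than 25% of their words, and Ndufs3 shares 55.0% with a ratio near 1.

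Levels of some members differed between the control hearts of the separately normalised tables. *Ndufb4* stood at 8.69 CPM in the ScrAβ42 hearts and at 97.0 CPM in the control antibody hearts, an 11.2-fold ratio, and *Ndufab1*, the mitochondrial acyl carrier protein, at 49.9 and 337.7 CPM, a 6.77-fold ratio. *Ndufs5* (4.01-fold), *Ndufb2* (3.17-fold) and *Ndufa12* (2.37-fold) also had ratios over 2. The 5 genes were among 12 members for which over 25% of the 31-base words of the main transcript occur in other genes, and for 8 of the 12 the gene that shared most was a processed pseudogene. The pseudogene *Ndufb4c* averaged 0 counts in the peptide table and 268 in the antibody table. For the 29 members with under 10% shared words the ratio was between 0.478 and 1.15, with a median of 0.700. Values of the genes with high sharing are uncertain, and how the counting divided such reads was not tested. The 19 subunits with under 10% shared words had medians of -0.056 with Aβ42 and -0.12 with 3D6.

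Nuclear genes of complexes II to V lay mostly below 0, as most complex I subunits did. Of the 45 tested in each study, of which 44 were in common, 34 were below 0 with Aβ42 (median -0.047) and 37 with 3D6 (median -0.098), and 0 had an unadjusted p under 0.05 in either study by edgeR. The 7 subunits encoded by the mitochondrial genome were measured in the antibody table, where 6 were above 0 with a median of 0.13. Of these, 5 were tested in the peptide study, with a median of -0.018, while *mt-Nd4l* was listed at 0 in every heart and *mt-Nd3* averaged under 2 CPM. Their summed level averaged 84959 ± 20329 CPM with Aβ42, 85982 ± 17152 CPM with ScrAβ42, 125844 ± 19526 CPM with 3D6 and 114516 ± 22830 CPM with control antibody. Of 10 other assembly factors for complex I, 9 were below 0 with Aβ42 (median -0.032) and 3 with 3D6 (median 0.0074). *Tmem186*, which joins the complex formed by *Ndufaf1*, was the 1 with an unadjusted p under 0.05, at -0.26 ± 0.12 with Aβ42 (edgeR adjusted p = 0.762). Among 8 transcriptional regulators of mitochondrial genes 0 had an unadjusted p under 0.05 by edgeR, with *Ppargc1b*, the coactivator PGC-1β, closest at -0.37 ± 0.18 in the peptide study. *Nrf1* and *Yy1* lay between -0.12 and -0.021 in both studies.

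Subunit transcripts varied together from heart to heart. After each group was centred on its mean, log2 CPM of subunit pairs correlated with a median Pearson r of 0.91 over the 14 peptide hearts and 0.94 over the 16 antibody hearts (630 pairs each). These are descriptions, since all genes of a heart share its library, its cell composition and its length tilt. Assembly factors were less alike, with median r of 0.55 and 0.26 over 28 pairs, and so were subunits with assembly factors, 0.66 and 0.54. Subunits and the mitochondrially encoded subunits correlated with a median r of 0.71 in the peptide hearts and -0.56 in the antibody hearts. *Ndufs1* had an r of 0.98 with the summed subunits in the peptide hearts and -0.51 in the antibody hearts, and *Ndufa10* 0.97 and 0.37. The 5 other protein-coding genes most like the summed subunits were *Idh3b*, *Uqcrc1*, *Cyc1*, *Fh1* and *Hrc* in the peptide hearts (r from 0.988 to 0.994 among 11458 genes), and *Atp5g3*, *Cox4i1*, *Atp5o*, *Cox6b1* and *Cox5a* in the antibody hearts (r from 0.989 to 0.995 among 11533 genes).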

How the data were processed

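The libraries were TruSeq stranded total RNA. After quality trimming, the authors quantified the reads against the GENCODE vM24 transcripts in Salmon. They deposited whole-number counts per gene for the peptide study and estimated counts per transcript (expected counts) for the antibody study, neither normalised. The peptide table has 1 further column that could be tied to no labelled mouse and was left out. Here, transcripts were summed to genes through GENCODE vM21 (GRCm38) and rounded, and transcripts it does not list, with 0.381% of counts, were kept as features of their own. Each table was fitted alone, with genes averaging at least 10 counts per heart, in edgeR 4.0.16 (R 4.3.3): TMM normalisation, the quasi-likelihood test (two-sided) and Benjamini-Hochberg adjustment over all genes tested. The test was checked on simulated counts. Log2 CPM used a prior count of 2. Shared sequence was the percentage of 31-base words of the main transcript found in transcripts of other genes.

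Alternatives were DESeq2 1.42.0, limma-voom (limma 3.58.1), other normalisations and filters, covariates, protein-coding transcripts alone, and each heart left out. The length tilt, the mouse number, blocks of consecutive numbers and the omission of 2 peptide hearts were added after the data were seen. Full statistics were given for every member with an adjusted p under 0.05, of which there were 0, and for the 5 members with the smallest p in each study. The values of 1 member are not reported here on their own. Gene lists are described by counts and medians with no test. The members and lists were chosen with earlier results of these data known. Each depth and error describes these mice only, and the p-values set the difference between groups against the spread between mice. Counting error was covered by the fit.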

Additional observations from a re-analysis of the deposited data

Results flagged for a closer look

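Values of single hearts that lay far from the rest of their group were looked for among the members named above, the class sums and their ratio, the mitochondrially encoded subunits, the mitochondrial share, the length tilt and 3 transcripts, 78 sets of values in all, of which 11 had such a heart. About 1 set in 20 would be marked by chance if the sets were independent and chosen without sight of the values. Here the subunits varied together, the members were those with the smallest p, and the 3 transcripts were already described for heart 22. This rate cannot be applied to the 11, and the counts are a description. Control antibody heart 22 accounted for 8 of the 11. It was the highest of its group for *Ndufa1* (156.2 CPM, next 96.5), *Ndufa13* (655.5 CPM, next 380.9), *Ndufb7* (454.6 CPM, next 270.8) and *Ndufs6* (327.8 CPM, next 200.7), and the lowest for *Ndufs1* (210.5 CPM, next 345.4). Its transcript counts were the lowest for Ndufa10-201 (829) and Ndufs1-201 (885) and the highest for Ndufa10-207 (1832). Its total count, 6397189, was the smallest of the antibody hearts and its length tilt the highest. The part of these properties in its values was not tested.

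The heart ScrAbeta42_3449 was the highest of its group for *Ndufb3* (145.6 CPM, next 103.8) and *Ndufb7* (261.9 CPM, next 208.6). The 3D6 heart 4 was the highest of its group for *Ndufs1* (487.5 CPM, next 438.7).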

How the results depend on the processing

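No member had an adjusted p under 0.05 under any alternative run. The count of members with an unadjusted p under 0.05, 0 by edgeR with TMM, was 3 when the atrial score was a covariate (beside 7.35% of all genes in that fit), 1 with the mitochondrial share (10.4%) and 4 with the length tilt as a covariate (10.1%), 1 with scaling to the total count (5.46%) and 1 without both hearts of least mitochondrial RNA (7.996%) in the peptide study, and 1 with the mitochondrial share as a covariate (4.45%) in the antibody study. Leaving out each heart in turn gave counts from 0 to 1 in the peptide study and from 0 to 2 in the antibody study. The shares of all genes in these fits are not given here, so nothing about the members is read from these counts. The subunit medians ranged from -0.12 to 0.013 and from -0.20 to -0.024 over the omitted hearts, and the assembly factor medians from -0.027 to 0.059 and from -0.046 to 0.030. The sign of the subunit medians depended on the processing. The peptide median of -0.059 was 0.11 with the atrial score as a covariate, and the antibody median of -0.12 was 0.048 with the mitochondrial share and 0.0039 with the length tilt as a covariate. The atrial score and the mitochondrial share were each run in both studies. Other alternatives moved the medians away from 0. Apart from single omitted hearts, the alternatives gave medians from -0.093 to 0.11 in the peptide study and from -0.18 to 0.048 in the antibody study. These moves were smaller than the SD among hearts, 0.25 and 0.33, which does not make the sign stable.

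Signs of named genes turned under 20 of 260 alternative values, the cause of which was not tested. In the peptide study with the atrial score as a covariate, *Ndufa12* was at 0.021, *Ndufb6* at 0.083, *Ndufb7* at 0.15, *Ndufs1* at 0.16 and *Ndufs6* at 0.069. *Ndufs1* was at 0.0085 with the total count, at 0.015 with the total count without mitochondrial genes and at 0.019 without both hearts of least mitochondrial RNA, and under these last 2 *Ndufb7* was at 0.0053 and 0.024. In the antibody study with the mitochondrial share as a covariate, *Ndufa1* was at 0.095, *Ndufa12* at 0.041, *Ndufa13* at 0.025, *Ndufb6* at 0.098, *Ndufb7* at 0.034 and *Ndufs6* at 0.060. With the length tilt, *Ndufa1* was at 0.023, *Ndufa12* at 0.00036, *Ndufb6* at 0.043 and *Ndufs6* at 0.0014. Over omitted hearts, *Ndufb7* ran from -0.088 to 0.061 and *Ndufs1* from -0.056 to 0.066 in the peptide study, and *Ndufa1* from -0.29 to 0.0050 in the antibody study. The groups compared share no replicate numbers and the labels tie no mice together, so that no pairing comes from the design. With consecutive mouse numbers as a block the antibody medians were -0.12 for subunits and -0.013 for assembly factors, and with the number as a covariate -0.15 and -0.026. Depth was low for some members, such as *Ndufaf6* with 7.77 CPM under 3D6.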
